A study of Mus musculus with 12 samples.

Results

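The immediate early genes are described here in 6 mouse embryos at embryonic day 16.5, one by one, in RNA of the cochlear epithelium, which forms the hearing organ. The 10 genes Fos, Fosb, Jun, Junb, Egr1, Egr2, Egr3, Atf3, Ier2 and Nr4a1 were chosen by name out of 22869 gene symbols, and each had 1 transcript row in the deposited table. There were 3 Esrp1-/- embryos (knockout of the gene of the epithelial splicing regulator ESRP1) and 3 Esrp1+/+ embryos (control), all of the C57BL/6 strain. Per the labels and the design text, the 2 cochleae of each embryo were put together, their epithelium was freed by hand and then with collagenase P at 37 degrees, and 2 libraries of polyA RNA were listed per embryo. Each genotype has an embryo 1, 2 and 3. The labels give both embryos numbered 1 a code that begins with D593, both numbered 2 a code with D501 and both numbered 3 a code with D867, and do not say what the shared beginnings mean. The labels state no dissection time for any embryo, so that a relation between these genes and handling was not tested.

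Immediate early genes are transcribed within minutes of a stimulus from transcription factors that already lie in the cell, and need no new protein for it. Kinase cascades act on serum response factor with its ternary complex partners and on CREB at their promoters, and the messenger RNAs decay fast. FOS and JUN family proteins pair through leucine zippers as the AP-1 factor, and EGR proteins bind GC-rich DNA through zinc fingers. Enzymatic and mechanical handling of live tissue is a known stimulus of this response.

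All 10 genes had their highest level in 1 embryo, control 1, and 7 of the 10 (Fos, Fosb, Jun, Junb, Egr1, Atf3 and Ier2) had their second highest in knockout 1. Of all 14717 genes tested, 20.3% were highest in control 1 and 5.18% had both places as these 7 do. The highest embryo had 152.5 times the level of the lowest for Fos and 1.65 times for Jun. Between genotypes 0 of the 9 members with enough reads for the test passed (edgeR's quasi-likelihood test, Benjamini-Hochberg adjusted over all genes, threshold 0.05), where 0.149% of all genes passed (0.0679% lower and 0.0815% higher in knockouts). Without adjustment 0 of the 9 had a p under 0.05 in this fit, which has no term for embryo number, beside 4.77% of all genes. With embryo number as a block in edgeR 4 of the 9 had, beside 5.57% of all genes, and 0 passed after adjustment. DESeq2 called 0 of the 7 members to which it gave an adjusted p, beside 1.04% of all genes. It gave none to Fos, Fosb and Egr1, the tested members whose levels spread most over the embryos. Esrp1 itself was at 27.2, 34.3 and 39.1 CPM in knockouts 1, 2 and 3, against 197.1, 102.4 and 117.6 CPM in controls 1, 2 and 3 (log2 fold change -2.05 ± 0.26 SE, adjusted p = 0.0354, edgeR). Its edgeR adjusted p was 0.146, 0.158, 0.124 and 0.122 without knockout 1, 2 or 3 or control 3, and 0.134 with embryo number as a block. Every knockout was below every control throughout.

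**Figure D1:**
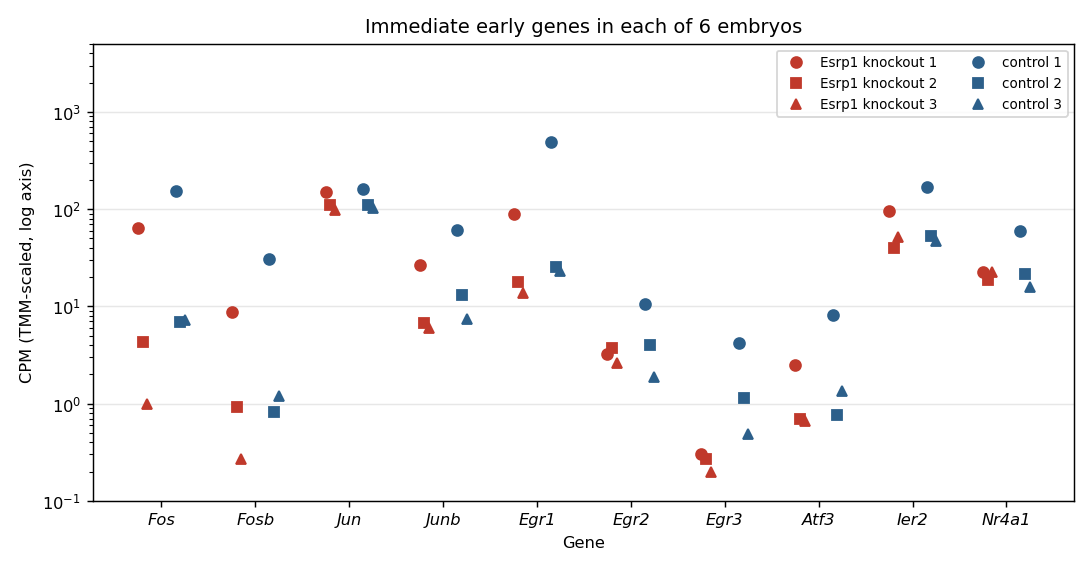
Level of each immediate early gene in each embryo, in TMM-scaled CPM on a log axis, with the 3 Esrp1 knockout embryos (red) left of the 3 control embryos (blue). Circles are the embryos numbered 1, squares those numbered 2 and triangles those numbered 3, and the control 1 circle is the highest point of every gene (Fos 152.7 CPM, Egr1 489.7 CPM).

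Levels are CPM, read counts relative to the reads on all genes after TMM scaling, from 12547301 to 21568517 reads per embryo. The bases directly upstream of the transcription start are shown for 5 members, 3 whose levels spread widely over the embryos (Fos, Fosb and Junb) and 2 whose levels spread less (Nr4a1 and Jun), since CREB and related factors are known to bind the letters TGACG there. The sequences are from RefSeq on GRCm38.p6, the assembly that mm10 represents, read 5′ to 3′ in the direction of the gene, each the 250 bases that end at the base before the start. Capitals mark TGACG or, on the other strand, CGTCA, the core letters of the cyclic AMP response element (CRE).
Fos (chr12:85473640-85473889, plus strand): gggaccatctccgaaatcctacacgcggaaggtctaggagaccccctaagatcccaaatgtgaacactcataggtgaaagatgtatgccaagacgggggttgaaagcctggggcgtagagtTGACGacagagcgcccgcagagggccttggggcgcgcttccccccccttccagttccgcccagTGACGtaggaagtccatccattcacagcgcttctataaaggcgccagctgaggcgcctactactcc
Fosb (chr7:19310046-19310295, minus strand): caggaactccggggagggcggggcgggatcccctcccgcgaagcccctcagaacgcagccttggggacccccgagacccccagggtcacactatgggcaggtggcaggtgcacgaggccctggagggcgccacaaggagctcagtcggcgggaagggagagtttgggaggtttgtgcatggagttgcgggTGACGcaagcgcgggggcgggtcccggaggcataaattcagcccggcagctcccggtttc
Junb (chr8:84978749-84978998, minus strand): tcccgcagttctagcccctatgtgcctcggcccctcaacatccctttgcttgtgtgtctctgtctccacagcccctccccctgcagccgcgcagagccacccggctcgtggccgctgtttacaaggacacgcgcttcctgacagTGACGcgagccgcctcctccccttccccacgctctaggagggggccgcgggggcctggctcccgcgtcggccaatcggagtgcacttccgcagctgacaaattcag
Nr4a1 (chr15:101266596-101266845, plus strand): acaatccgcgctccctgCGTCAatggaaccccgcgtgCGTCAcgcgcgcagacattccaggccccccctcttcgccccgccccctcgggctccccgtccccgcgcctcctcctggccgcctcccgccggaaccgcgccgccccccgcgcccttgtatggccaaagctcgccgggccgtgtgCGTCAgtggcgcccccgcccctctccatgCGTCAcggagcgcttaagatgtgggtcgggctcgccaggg
Jun (chr4:95052223-95052472, minus strand): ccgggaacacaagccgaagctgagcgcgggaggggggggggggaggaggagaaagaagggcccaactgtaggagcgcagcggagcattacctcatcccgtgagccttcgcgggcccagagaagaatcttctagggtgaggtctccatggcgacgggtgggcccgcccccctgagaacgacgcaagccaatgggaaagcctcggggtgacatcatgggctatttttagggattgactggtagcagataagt
Windows of 7 of the 10 members were searched. Egr1 was left out of the search, and Egr3 and Ier2 were without a window. Fos had 2 of these CRE cores, Fosb and Junb 1 each, and Nr4a1 4 in these 250 bases. The CRE core nearest the start of Fos began 66 bases before it, that of Fosb 60 bases and that of Nr4a1 40 bases, while in Junb it began 106 bases before. Egr2 had 2 cores and Atf3 had 1, within the last 7 bases before its start. Jun had no TGACG on either strand.

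With Jun as the exception, 6 of the 7 members searched held a CRE core, as did 17.8% of 32851 RefSeq windows of the same 250 bases. Those windows were neither limited to the genes tested nor matched to the members in base composition. Of the 7 searched, Egr2 alone held a CArG box, the serum response element core, 72 to 63 bases before its start. It was found in 1.47% of all windows. The TATA box letters TATAAA were found in Fos alone, beginning 33 bases before the start, and in 12.4% of all windows. The full CRE TGACGTCA (1.55% of windows), which contains the core, the AP-1 site TGANTCA (6.75%) and the EGR site GCGTGGGCG (0.536%) matched 0 of the 7. The Jun window holds TGACATCA, a single letter from the full CRE, which none of these patterns can match. Jun thus lacks the exact letters searched, and related letters were not searched for. Both strands were searched, but Egr1 and bases further upstream were not. These matches describe letters in 250 bases, and binding was not measured.

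**Figure D2:**
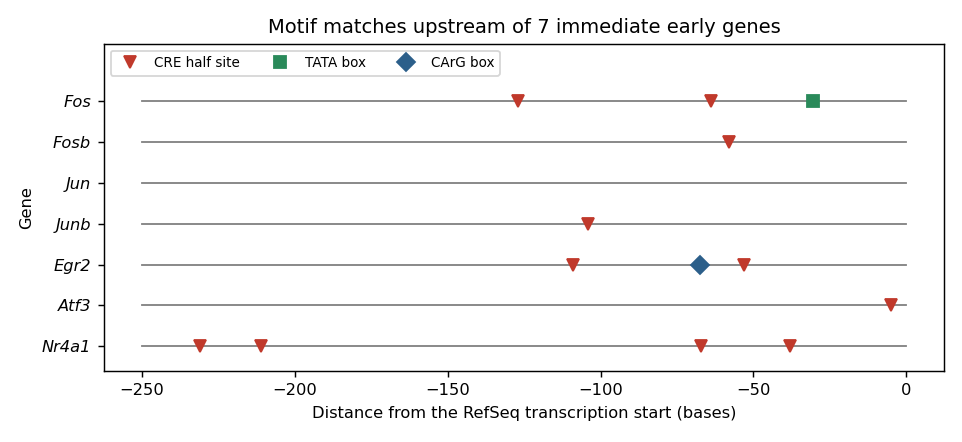
Matches to 3 motifs on either strand in the 250 bases upstream of the RefSeq transcription start of 7 immediate early genes, with distance from the start in bases on the x axis and 1 line per gene. CRE cores (red) stand on every line but that of Jun, the CArG box (blue) on that of Egr2 and the TATA box (green) on that of Fos.

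Fos (chromosome 12, 85473890 to 85477273, GRCm38), which encodes the AP-1 subunit FOS, had 64.6, 4.29 and 1.00 CPM in knockouts 1, 2 and 3, against 152.7, 6.89 and 7.27 CPM in controls 1, 2 and 3. In reads these were 847, 80 and 15 in the knockouts and 2436, 152 and 135 in the controls. Control 1 was 21.0-fold and knockout 1 was 8.88-fold above the highest of the other 4 embryos, and the genotypes overlapped because knockout 1 lay above controls 2 and 3. The mean was 23.3 ± 35.8 CPM in knockouts and 55.6 ± 84.1 CPM in controls (SD, n = 3 each), so that each SD exceeded its mean. The log2 fold change of -1.27 ± 1.46 (SE) did not pass (adjusted p = 0.994, edgeR). Within each number the knockout was below the control, at 0.423, 0.623 and 0.138 of its level in numbers 1, 2 and 3. In numbers 2 and 3 the knockout and the control also differed in sex, as given below, which holds for every member. In bulk RNA, fewer cells that express a gene and less RNA per cell cannot be told apart.

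Fosb (chromosome 7, 19302696 to 19310051), whose product takes the place of FOS in AP-1, had 8.84, 0.913 and 0.267 CPM in knockouts 1, 2 and 3, against 31.0, 0.817 and 1.19 CPM in controls 1, 2 and 3. The embryos numbered 1 again stood above all others, by 7.46-fold in knockout 1 and 26.1-fold in control 1 over the highest of the other 4. Outside those 2 embryos Fosb had 4 to 22 reads, so its order there is uncertain. A log2 fold change of -1.74 ± 1.44 (SE) did not pass either (adjusted p = 0.994, edgeR).

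Of the JUN family, Junb (chromosome 8, 84976910 to 84978718) had 26.9, 6.82 and 5.94 CPM in knockouts 1, 2 and 3, against 60.7, 13.0 and 7.49 CPM in controls 1, 2 and 3. Within each number the knockout was lower, at 0.444, 0.524 and 0.793 of the control. Jun (chromosome 4, 95049034 to 95052222), the AP-1 subunit that can also pair with itself, had 149.4, 109.2 and 98.0 CPM in knockouts 1, 2 and 3, against 161.3, 109.8 and 103.5 CPM in controls 1, 2 and 3. Jun had the same embryos in its top 2 places as Fos and Junb, but its highest embryo was only 1.65 times its lowest, against 10.2 times for Junb and 152.5 times for Fos. Log2 fold changes were -1.04 ± 0.81 for Junb and -0.07 ± 0.22 for Jun (SE, both adjusted p = 0.994, edgeR).

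Atf3 (chromosome 1, 191170296 to 191183340) encodes a stress-induced factor with a leucine zipper that pairs with JUN proteins. It had 2.52, 0.698 and 0.667 CPM in knockouts 1, 2 and 3, against 8.21, 0.771 and 1.35 CPM in controls 1, 2 and 3. Knockout 1 was 1.87-fold and control 1 was 6.09-fold above the highest of the other 4, in which Atf3 had 10 to 25 reads. Between genotypes it differed by -1.42 ± 0.91 on the log2 scale (SE) and did not pass (adjusted p = 0.994, edgeR).

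The EGR genes differed among themselves in how knockout 1 stood. Egr1 (chromosome 18), which encodes the zinc finger factor of growth factor and synaptic responses, had 89.9, 18 and 13.6 CPM in knockouts 1, 2 and 3, against 489.7, 25.4 and 23.0 CPM in controls 1, 2 and 3. Control 1 held 7813 of its 10517 reads, and knockout 1 was 3.54-fold above the highest of the other 4. The knockout was below the control in each number, at 0.184, 0.709 and 0.592 of its level, with an overall log2 fold change of -2.15 ± 1.20 (SE, adjusted p = 0.994, edgeR). Egr2 (chromosome 10, 67537869 to 67542188), also known as Krox20 for its part in hindbrain and myelin, had 3.20, 3.70 and 2.60 CPM in knockouts 1, 2 and 3, against 10.7, 3.99 and 1.89 CPM in controls 1, 2 and 3. Here knockout 1 lay inside the range of the other 4 embryos, and control 1 alone stood apart, 2.68-fold above the next. Its log2 fold change of -0.79 ± 0.56 (SE) did not pass (adjusted p = 0.994, edgeR).

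Egr3 (chromosome 14, 70077314 to 70082550), a relative known from muscle spindles and activated lymphocytes, was the only member whose genotypes did not overlap, as was the case with every knockout below every control in 4.44% of genes tested. It had 4, 5 and 3 reads in knockouts 1, 2 and 3, against 67, 25 and 9 reads in controls 1, 2 and 3. As CPM these were 0.305, 0.268 and 0.200 in the knockouts and 4.20, 1.13 and 0.485 in the controls. Summed over embryos and scaled for depth, the knockouts had 0.144 of the control level (12 against 101 reads, exact 95% interval 0.0719 to 0.262, counting error only). Control 1 held 67 of the 101 reads, and without it the level was 0.307 of the control (12 against 34 reads, 0.145 to 0.607). These reads were too few for the filter on low counts, and Egr3 was not among the 9 members tested. Without that filter its log2 fold change was -2.88 ± 0.80 (SE, adjusted p = 0.414 in edgeR), and in DESeq2 -2.92 ± 0.88 (SE, adjusted p = 0.0749). It entered the filtered fit without knockout 1, 2 or 3 or control 3, where edgeR's adjusted p was 0.893, 0.936, 0.926 and 0.409. The authors' deposited table gave Egr3 a log2 fold change of -2.58 with an FDR of 0.0147, the only member with an FDR under 0.05 there, and gave Egr1 0.184. Egr3 was about as low in knockout 1 as in knockouts 2 and 3, while Fos, Fosb and Junb were high in that embryo.

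Ier2 (chromosome 8, 84661331 to 84662852), a short early response gene that encodes a nuclear protein, had 96.0, 39.4 and 51.6 CPM in knockouts 1, 2 and 3, against 167.2, 53.1 and 46.7 CPM in controls 1, 2 and 3. Both embryos numbered 1 stood above the rest, and knockout 3 lay above control 3. Nr4a1 (chromosome 15, 101266846 to 101274795), which encodes the orphan nuclear receptor NUR77, had 22.7, 18.5 and 22.8 CPM in knockouts 1, 2 and 3, against 59.1, 21.5 and 15.7 CPM in controls 1, 2 and 3. Only control 1 stood apart for Nr4a1, with knockout 1 level with knockout 3. Log2 fold changes were -0.51 ± 0.50 for Ier2 and -0.58 ± 0.43 for Nr4a1 (SE, both adjusted p = 0.994, edgeR).

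Per transcript length, in the authors' deposited FPKM, the members also differed in their median level over the 6 embryos. Jun and Ier2 had the highest medians, 14.5 and 14.0, with lowest values of 11.9 and 10.8 FPKM. Nr4a1 had a median of 4.0 FPKM, Egr1 3.65, Junb 2.36 and Fos 1.58, and these 4 overlapped in range. Of the neighbours in this order, only Ier2 and Nr4a1 did not overlap in range over the 6 embryos. Egr2, Atf3, Egr3 and Fosb had medians of 0.550, 0.228, 0.129 and 0.121 FPKM. The order at the top was another one in control 1, where Egr1 led with 65.3 FPKM, followed by Ier2 with 41.3 and Fos with 29.9 FPKM. Fos there was above Jun (19.1 FPKM), whereas in knockout 3 it was at 0.210 FPKM beside 11.9 FPKM for Jun.

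All 9 tested members had a negative log2 fold change, with a median of -1.04, while 49.7% of all genes tested were negative and their median was 0.002. Without control 1 but with knockout 1 all 9 log2 fold changes were positive, from 0.10 for Egr2 and 0.155 for Jun to 1.70 for Fos and Fosb, and 0 passed. Without both embryos numbered 1, Fos was at -1.39, Fosb at -0.71, Junb at -0.70, Egr1 and Atf3 at -0.62, Ier2 at -0.15 and Jun at -0.05, while Egr2 (0.09) and Nr4a1 (0.14) were positive, and again 0 passed, beside 159 genes called in all. Knockouts 2 and 3 had 0.268 and 0.200 CPM of Xist, which coats the silenced X, and 95 and 81.9 CPM of the Y-linked Ddx3y. Knockout 1 had 1098.1 CPM of Xist and 0.839 CPM of Ddx3y, and the controls had 1312.5 to 1807.5 CPM of Xist and 0.647 to 0.907 CPM of Ddx3y. Genotype and sex therefore cannot be told apart in the fit without both embryos numbered 1 or in that without knockout 1, and are partly confounded with all 6 embryos. Nor can they be told apart within numbers 2 and 3, in the ratios above and the counts that follow. In number 1 the knockout was the lower embryo for 10 of 10 members, which follows from control 1 being the highest embryo in each. It was the lower for 9 in number 2, where Jun was at 0.995 of the control, and for 7 in number 3. In all 3 numbers it was the lower for 6 (Fos, Jun, Junb, Egr1, Egr3 and Atf3), as for 13.6% of all genes tested. The 2 are not alike, since control 1 fixed number 1 for the members and not for all genes. No share over all genes was taken for numbers 2 and 3 apart. Jun differed little, at 0.926, 0.995 and 0.947 of the control in numbers 1, 2 and 3.

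**Figure D3:**
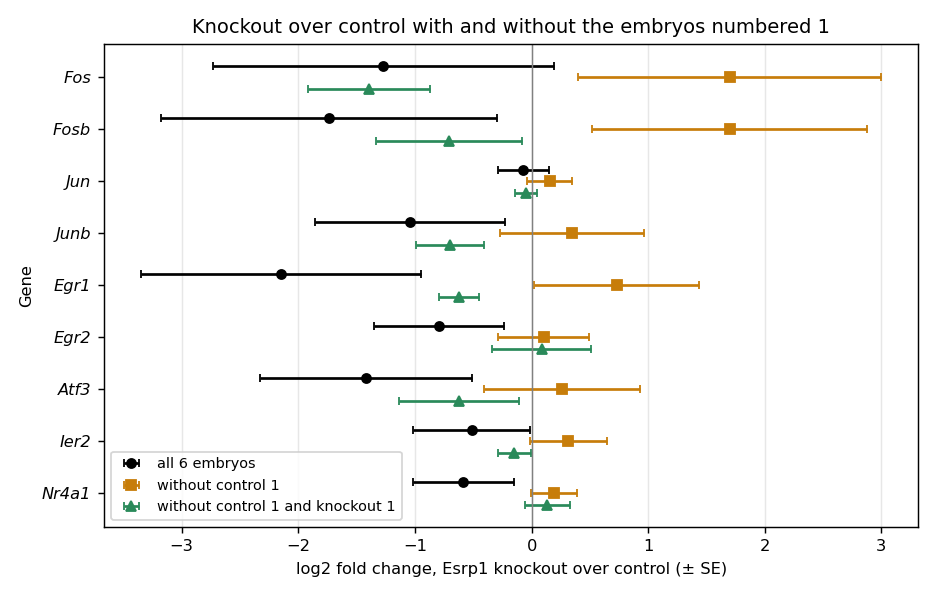
Log2 fold change of Esrp1 knockout over control with its standard error for the 9 immediate early genes tested with edgeR, with all 6 embryos (black), without control 1 (orange) and without control 1 and knockout 1 (green). All 9 black points are below 0 and all 9 orange points above it, from 0.10 for Egr2 to 1.70 for Fos and Fosb.

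The variation of the members lay between the embryo numbers more than between genotypes, as did that of all genes tested by their medians. The share between numbers has more degrees of freedom than that between genotypes, which favours it. The members were chosen with earlier results of these data known, so that no test was made over them as a set. Of the variation of log2 CPM over the 6 embryos, a median of 86.3% lay between the 3 numbers and 9.15% between the genotypes over the 9 members, against medians of 44.9% and 11.4% over all genes tested. Jun had 98.0% between numbers, Fosb 88.8%, Fos 86.3% and Egr1 82.2%, while Egr2 had 54.4% and Nr4a1 50.1%. In size, Fos had an SD of 2.62 on the log2 scale, rank 5 of all 14717 genes tested, Fosb 2.38 and Egr1 1.95, beside a median SD of 0.24 over all genes. Jun, at 0.30, was exceeded by 35.8% of genes.

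**Figure D4:**
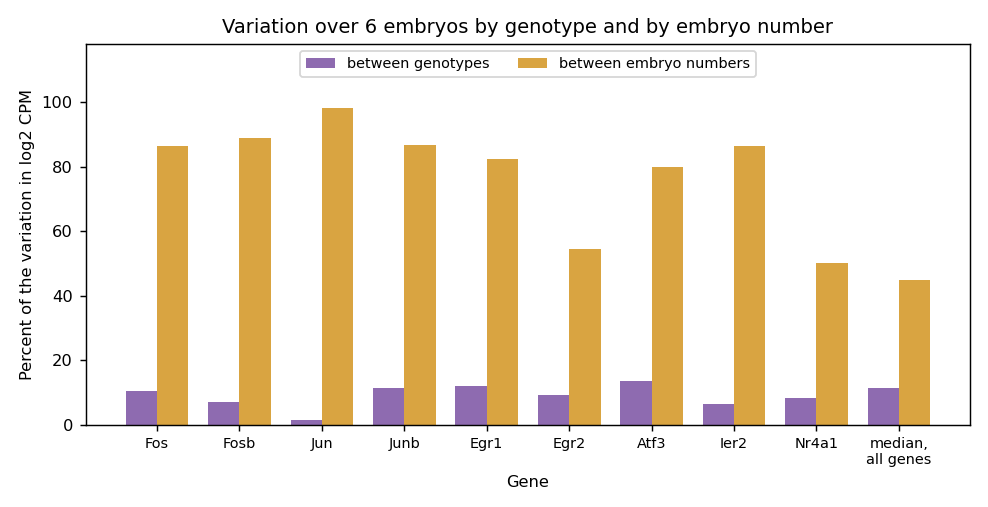
Percent of the variation in log2 CPM over 6 embryos that lay between the 2 genotypes (purple) and between the 3 embryo numbers (yellow) for the 9 immediate early genes tested, and the median over all 14717 genes tested at the right. The share between numbers is from 50.1% for Nr4a1 to 98.0% for Jun, beside a median of 44.9%.

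A test of the difference between the 3 numbers, with genotype in the model, was made across all genes. In edgeR's quasi-likelihood F test 0 of the 9 members and 0.0% of all genes passed, with a smallest adjusted p of 0.412 over all genes. Without adjustment 7 of the 9 members (all but Egr2 and Nr4a1) had a p under 0.05, beside 8.98% of all genes. Ordered by it, Fos had rank 1 of 14717 genes, Junb rank 2, Fosb rank 5 and Egr1 rank 9, with edgeR adjusted p of 0.412 to 0.502. DESeq2's likelihood ratio test called 6 members (Fos, Fosb, Junb, Egr1, Ier2 and Atf3) beside 0.678% of all genes, with adjusted p from 5.89e-40 for Fos to 0.0289 for Atf3. The result thus depended on the tool. The embryos numbered 1 were both above the other 4 in 7 of 10 members, as they were in 14.3% of all genes tested.

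The wider early response was tested in a list of 43 further genes, of which 39 had enough reads. Over all genes 0 of the 39 passed either edgeR test, 11 had an unadjusted p under 0.05 between numbers (8.98% of all genes), and DESeq2 called 6 between numbers (0.678% of all genes), which are named with this outcome known. Of the 39, 25 were highest in control 1 (20.3% of all genes) and 13 had both embryos numbered 1 above the other 4 (14.3%). The median log2 fold change of knockout over control was -0.21. Zfp36, which encodes the messenger RNA decay factor tristetraprolin, had 27.9, 7.35 and 8.94 CPM in knockouts 1, 2 and 3, against 66.4, 10.9 and 8.95 CPM in controls 1, 2 and 3. Cyr61, a secreted matrix protein gene, had 70.4, 28.8 and 24.1 CPM in the knockouts, against 160.6, 25.4 and 33.6 CPM in the controls. Both thus followed the order of Fos at the top, as did Dusp1, the gene of a phosphatase that switches off MAP kinases, with 24.5, 8.54 and 6.67 CPM in the knockouts against 31.1, 10.5 and 8.19 CPM in the controls. The other 3 that DESeq2 called were Btg2, an antiproliferative gene, Ppp1r15a, a stress phosphatase subunit gene, and Socs3, a cytokine signalling inhibitor gene. Socs3 differed in its order, with 44.0, 12.6 and 18 CPM in the knockouts, against 33.3, 11.9 and 13.8 CPM in the controls.

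Of early genes known from active neurons, Arc, Egr4 and Npas4 are given here, chosen after their values were seen. Arc, a synaptic capsid-like protein gene, had 0.991, 0.537 and 1.00 CPM in knockouts 1, 2 and 3, against 11.0, 1.27 and 0.862 CPM in controls 1, 2 and 3 (log2 fold change -2.37, adjusted p = 0.927, edgeR). Egr4, the fourth EGR gene, had 14 reads, all in control 1. Npas4, a neuronal activity factor gene, had 7 reads, with 0.152 CPM in knockout 1 against 0.0627 CPM in control 1 and 0.216 CPM in control 3, and did not have the order of Arc. Trib1, a kinase-like scaffold gene with the smallest adjusted p of the list, had a log2 fold change of -0.63 ± 0.17 (SE, adjusted p = 0.388, edgeR), with all knockouts (28.6 to 40.6 CPM) below all controls (45.8 to 58.5 CPM). Jund, the third JUN gene, had 171.7, 143.9 and 156.1 CPM in the knockouts against 186.7, 128.2 and 116.4 CPM in the controls.

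Genes upstream of the response and other stress genes had sums that overlapped between genotypes. The 23 genes of upstream kinases and transcription factors, among them Srf, Elk1 and Creb1, summed to 1821 to 2051 CPM in knockouts and 1996 to 2011 CPM in controls, with a median log2 fold change of -0.07. Elk4, a ternary complex factor gene, had the smallest adjusted p of that list (0.519 between numbers, edgeR). The 16 heat shock and chaperone genes, which answer protein damage, summed to 6067 to 6944 CPM in knockouts and 6255 to 6474 CPM in controls (median -0.04). Hspd1 had the smallest adjusted p there (0.561 between numbers). The 14 hypoxia genes summed to 992 to 1175 CPM in knockouts and 1013 to 1259 CPM in controls (median -0.12), with Ddit4 first (adjusted p = 0.519 between numbers). Of 12 tested partners and antagonists of FOS, JUN and EGR proteins, 10 had negative values (median -0.15), with Maf first (adjusted p = 0.519 between numbers). In each of these 4 lists 0 genes passed either edgeR test, and DESeq2 called 0 between numbers. Unadjusted p under 0.05 between numbers were found for 5 of 23, 0 of 16, 1 of 14 and 5 of 12 genes, beside 8.98% of all genes.

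The marker genes of neurons, macrophages and mesenchyme also set control 1 apart, while those of endothelium, glia and red blood cells did not set it lowest. The summed level of 9 neuron markers was 589.5, 703.6 and 523.3 CPM in knockouts 1, 2 and 3, against 98.0, 913.3 and 516.1 CPM in controls 1, 2 and 3. The 12 macrophage markers summed to 239.6, 187.2 and 207.8 CPM in the knockouts, against 86.0, 204.8 and 226.4 CPM in the controls. Thus the embryo with the most Fos, Egr1 and Arc had the least neuron and macrophage RNA, and knockout 1, second in Fos, had neuron levels within the range of the other embryos and the most macrophage RNA. The 12 mesenchyme markers were lowest in control 1 too, with 3471 to 3538 CPM in knockouts, against 2701, 3462.5 and 3892.5 CPM in controls 1, 2 and 3. The 10 endothelial markers were at 247 to 424 CPM in knockouts and 272 to 529 CPM in controls, the 6 glial markers at 657 to 883 CPM in knockouts and 684 to 1004.5 CPM in controls, and the 5 red blood cell genes at 325 to 863 CPM in knockouts and 572 to 1119.7 CPM in controls. Control 1 was at 271.6 CPM for endothelium, above knockout 3 (246.9 CPM), and at 607.6 CPM for red blood cell genes, inside the range of the others. It had the highest glial sum (1004.5 CPM), with a centred mean of -0.14 for that list. No marker in the table was at 0 in all embryos. The 12 cochlear epithelium markers, all present, summed to 12639.6 to 16427 CPM in knockouts, against 12041, 6133 and 7869 CPM in controls 1, 2 and 3. Control 1 had the highest of the 6 embryos in 8 of the 12, and the highest centred mean of that list (0.42 on the log2 scale), where its neuron, macrophage and mesenchyme lists had their lowest. Of the epithelial sum, Oc90 had 8220.2 to 10497 CPM in knockouts and 3038 to 6619 CPM in controls. The part of these cell types in the early gene levels was not tested.

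**Figure D5:**
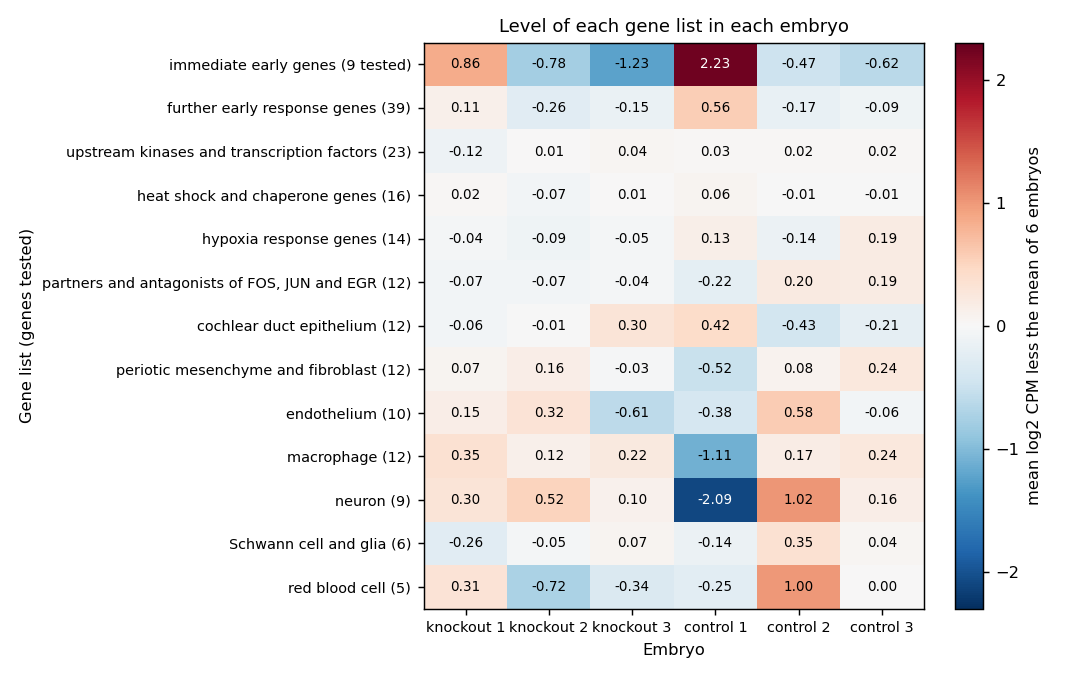
Mean log2 CPM of each gene list in each embryo less its mean over the 6 embryos, with knockouts 1 to 3 left and controls 1 to 3 right, and the number of genes tested in brackets. The immediate early genes are at 0.86 in knockout 1 and 2.23 in control 1, the heat shock list stays within -0.07 to 0.06, and the neuron list is at -2.09 in control 1.

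The genes most like the members were found by the Pearson correlation of log2 CPM over the 6 embryos with the mean profile of the 9 tested members, among 12877 other named genes with a mean of at least 1 CPM. The 10 highest were Xylt2 (r = 0.984), Metrnl (0.984), Klraq1 (0.983), Cyr61 (0.983), Zfp36 (0.981), Manba (0.977), Tspan10 (0.974), Slc12a9 (0.973), Dusp1 (0.973) and Usf1 (0.970). This list depended on the measure, since 0 of the 10 were among the 22 tied highest by Spearman correlation, and 6 remained without Fos and Fosb in the profile. All 10 were highest in control 1 and second in knockout 1. This was largely set by their choice, since the members' mean profile was itself highest in those 2 embryos. Their size of change differed, with an SD on the log2 scale of 1.24 for Zfp36, 1.08 for Cyr61 and 0.91 for Dusp1, and of 0.06 for Usf1 to 0.47 for Tspan10. Each member against the mean of the others had an r of 0.775 for Egr2, 0.826 for Nr4a1 and between 0.942 (Fos) and 0.995 (Egr1) for the other 7. These 6 points share their libraries and rest on 2 high embryos, and 0.287% of the genes compared had an r over 0.95.

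In structure the members were compact genes. In GENCODE M21 their transcripts had 1 to 7 exons (median 2.5), against a median of 9 over 13993 tested genes with a match, and Jun, Junb and Ier2 had a single exon. Their genomic span had a median of 4035 bases against 23398 bases, and 9 of 10 spanned under 10000 bases, as did 25.5% of all. Transcripts had a median length of 2721 bases against 3047 bases. The letters ATTTA, the core of AU-rich elements that speed the decay of messenger RNA, occurred at least once in the 3′ untranslated region of 9 members (all but Ier2), as in 66.8% of all genes. Per kilobase of that region their median was 2.59 matches, against 1.35 over all genes, with 5.52 in Nr4a1, 4.91 in Fos, 4.12 in Junb and 3.24 in Jun. Density and spread over embryos did not go together in each gene, since Fosb had 0.466 matches per kilobase with an SD of 2.38 on the log2 scale, and Jun 3.24 with an SD of 0.30.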

How the data were processed

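Cochlear epithelium RNA of 3 Esrp1 knockout and 3 control embryos was analysed. Read counts per RefSeq transcript row were deposited by the authors without normalisation, 1 column per embryo in which its 2 libraries stand together. The deposited FPKM per embryo were, per the file headers, made by the authors. A deposited table of the authors' comparison adds log2 fold changes, p-values and FDR. The submitters' processing notes name edgeR and mm10. Which aligner was used is not given in these sources, and 14 other columns were left out.

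For each gene the transcript row with the highest summed count stood for it (28644 rows, 22869 symbols). Genes were kept with filterByExpr (minimum count 10), scaled by TMM, and tested with edgeR 4.0.16 under R 4.3.3, as knockout against control without a block, and as a joint F test of the embryo numbers with genotype in the model. Benjamini-Hochberg adjustment ran over all genes tested. Standard errors were derived as |log2 fold change| divided by the root of the F value. Log2 CPM had a prior count of 2. The individual embryos are the replicates. Alternatives were RLE scaling, DESeq2 1.42.0, no filter, summed rows, a replicate block, and leaving out embryos. Both edgeR tests were checked on simulated counts, with the same dispersion for every gene and no difference between embryos beyond the one tested. Spread as large as that of the members was not covered by this check. Intervals cover counting error only, and PCR copies were not told apart.

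The named genes are the members, Esrp1, per list the genes past either test or else the one with the smallest adjusted p, and the 10 most like the members. The members and lists were chosen with earlier results of these data known. Gene structure was taken from GENCODE M21 for 13993 genes matched by RefSeq accession, and promoters from RefSeq on GRCm38.p6.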

Additional observations from a re-analysis of the deposited data

How the results depend on the processing

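Between genotypes 0 members were called under every alternative run (RLE scaling, DESeq2, no filter, summed rows, replicate block, each embryo left out, both embryos numbered 1 left out), while the count over all genes was 22, and was 166 in DESeq2, 6 with the replicate block, 159 without both embryos numbered 1, and 0 to 30 with 1 embryo left out. It was 12, 0 and 4 without knockouts 1, 2 and 3, and 30, 13 and 0 without controls 1, 2 and 3. Leaving out 1 embryo turned signs, over ranges of -4.34 to 1.70 for Fos, -4.15 to 1.70 for Fosb, -3.51 to 0.73 for Egr1, -2.31 to 0.26 for Atf3, -2.08 to 0.35 for Junb, -1.20 to 0.10 for Egr2, -0.98 to 0.32 for Ier2, -0.91 to 0.19 for Nr4a1 and -0.28 to 0.155 for Jun (log2 fold change). Control 1 was the embryo behind each positive end, Jun also turned (0.04) without knockout 3, and Egr2 (0.0877) and Nr4a1 (0.136) turned without both embryos numbered 1. Between numbers, DESeq2 called 89 genes with 6 members, edgeR without a filter 1 gene, the member Fos (adjusted p = 0.0383), and edgeR with 1 embryo left out 0 to 4358 genes with 0 to 10 members, from fits with 1 residual degree of freedom. The highest counts came without control 1 (4358) and knockout 1 (2662). The cause was not tested. The numbers were not taken to pair the embryos, since deviations of same-numbered embryos correlated by only 0.0768, 0.177 and 0.0288. Knockouts 1 and 2 correlated best with the control of their own number, knockout 2 with control 3 by nearly as much (0.158). Knockout 3 correlated best with control 1 (0.105). With the replicate block Fos had a log2 fold change of -1.39 ± 0.34 (SE, adjusted p = 0.391) and Junb -0.84 ± 0.20 (adjusted p = 0.366), all 9 members were negative, and 4 of the 9 (5.57% of all genes) had an unadjusted p under 0.05 in edgeR. Esrp1 was at -2.0 with the block (adjusted p = 0.134), and -2.23 to -1.71 with 1 embryo left out. Prior counts of 0.5 and 5 moved the median share between numbers to 85.8% and 86.4%. The Egr3 ratio without control 1 was chosen after seeing the data. Fosb, Egr3 and Atf3 are limited by depth, with 25 reads or fewer in most embryos.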
